A study of Macaca mulatta and Mus musculus and Rattus norvegicus with 12 samples.

Results

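The 10 genes described here encode proteins that bone cells use to build, hold back and mineralize matrix and to set blood phosphate: DMP1, MEPE, SPP1, IBSP, PHEX, FGF23, ENPP1, ANKH, ALPL and PHOSPHO1. They were taken by symbol from tables of gene counts of mouse, rat and rhesus macaque bone. Members made up 9 of 38599 gene symbols counted in mouse, 10 of 35259 in rat and 9 of 28641 in macaque. ANKH had no row in mouse and FGF23 had none in macaque.

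Bone mineral forms when calcium phosphate is deposited along collagen. Pyrophosphate in the matrix blocks this step, ENPP1 and ANKH are known for supplying it, and the phosphatases ALPL and PHOSPHO1 remove the block or release phosphate. DMP1, MEPE, SPP1 (osteopontin) and IBSP (bone sialoprotein) are secreted acidic phosphoproteins that bind mineral, and DMP1 and MEPE are known as products of osteocytes, the cells buried in bone matrix. Osteocytes are also a source of FGF23, the hormone that makes the kidney excrete phosphate, and inherited loss of PHEX or DMP1 raises FGF23 and lowers blood phosphate.

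The samples were poly(A)+ RNA of bone pieces enriched in osteocytes, taken from the roof of the skull (calvaria) or from the tibia of the leg, and the labels name no treatment or genetic change in any group. Mouse libraries (strain C57BL6, females of 4 months) were pools of 3 animals, with 2 from calvaria (M4 and M8) and 2 from tibia (M5 and M7). Rat libraries (Wistar females of 6 months) were pools of 2 animals, 1 from calvaria (R1) and 1 from tibia (R3), so that rat values have no replicate. Macaque libraries (females, aged 4 to 6 months by the labels and the same number of years by the study's methods) came from 1 animal each, with 3 from calvaria (G1, G3 and T1) and 3 from tibia (G2, G4 and T2). Bones were stripped of periosteum and digested briefly with collagenase, and removal of marrow by spinning is stated for the rodent tibias only. Macaque was sequenced on a separate lane and counted on another annotation, so that species, lane and annotation cannot be told apart.

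Reads counted on named genes ranged from 13934813 to 16826535 in mouse, from 12233256 to 14255423 in rat and from 7951585 to 10342459 in macaque. Levels are given in CPM, the reads of a gene set to a common library total, scaled by TMM factors in mouse and macaque and by library size alone in rat, and levels of different genes are compared only per kilobase of exon. A gene was called at an adjusted p under 0.2 with a fold change over 1.1, the study's own thresholds, by edgeR's quasi-likelihood test over the whole table of each species. This called 14 genes in mouse and 3773 in macaque. At the same thresholds the study reported more genes in mouse and fewer in macaque, so its calls and those here are not the same. Differences are log2 ratios of calvaria to tibia, and negative ones mean more RNA in tibia. Every library is bulk tissue, in which fewer cells of a type and less RNA per cell cannot be told apart.

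In macaque T2 stood apart from the other tibia libraries, and the calvaria pools of mouse stood apart from each other. The tibia library T2 had a summed level of 6 osteoblast markers of 136749 CPM, against 37709 in G2 and 38032 in G4. COL1A1 and COL1A2 held most of this sum, at means of 28996 and 39935 CPM in macaque tibia. The next marker, BGLAP, averaged 1291 there, so that the other markers hardly enter the sum. The calvaria libraries of mouse differed in the same sum, again mostly of these collagen genes, with 48139 CPM in M4 and 21614 in M8. The calvaria library T1 had 89708 CPM, against 57454 in G1 and 51689 in G3. T2 was apart from G2 and G4 in other marker sums too. It was higher in osteoclast (1574 CPM, against 657 and 422), myeloid, erythroid and osteocyte markers, and lower in chondrocyte, B cell and muscle markers. M4 was above M8 in osteocyte, osteoclast, chondrocyte and muscle markers, and below it in myeloid, erythroid (986 against 2772 CPM) and B cell markers. The summed level of osteocyte markers outside the list was higher in tibia in every species, the direction of MEPE. The 7 markers summed to 1018 and 1942 CPM in calvaria and 6756 and 9385 in tibia of mouse, where none was called, and to 307.5 and 1239 CPM in rat. In macaque they summed to 1075 to 1676 CPM in calvaria and 1792 to 3370 in tibia. There 3 of 5 tested (SOST, PTPRZ1 and GJA1) were called, against 28.8% of all genes. SOST (sclerostin) averaged 7127 CPM in mouse tibia and so held most of the sum there. GJA1 averaged 1475 CPM in macaque tibia, the largest part of that sum, and had 9400 reads in rat tibia. Within macaque tibia the sum was highest in T2 (3370 CPM, against 1792 in G2 and 1920 in G4), where MEPE was lowest. SOST had only 5 and 15 reads in rat and KERA none. Markers of marrow were not equal between the sites. In macaque all 5 myeloid and all 5 erythroid markers tested were called higher in calvaria, against 28.8% of all genes called in either direction. Summed myeloid levels there were 36804 to 60849 CPM in calvaria and 7079 to 14180 in tibia. In mouse they were 90312 and 120267 CPM in calvaria and 55238 and 62783 in tibia, with none of 6 markers called. In rat they were 79474 CPM in calvaria and 42792 in tibia. Summed erythroid levels were higher in rat calvaria too (9190 against 4671 CPM), while in mouse the sites overlapped. Chondrocyte markers summed to 510 to 618 CPM in mouse tibia and 13.4 to 71.0 in mouse calvaria. In rat tibia 5 muscle markers summed to 410 CPM against 6.80 in calvaria. The part of these differences in the results below was not tested.

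**Figure D1:**
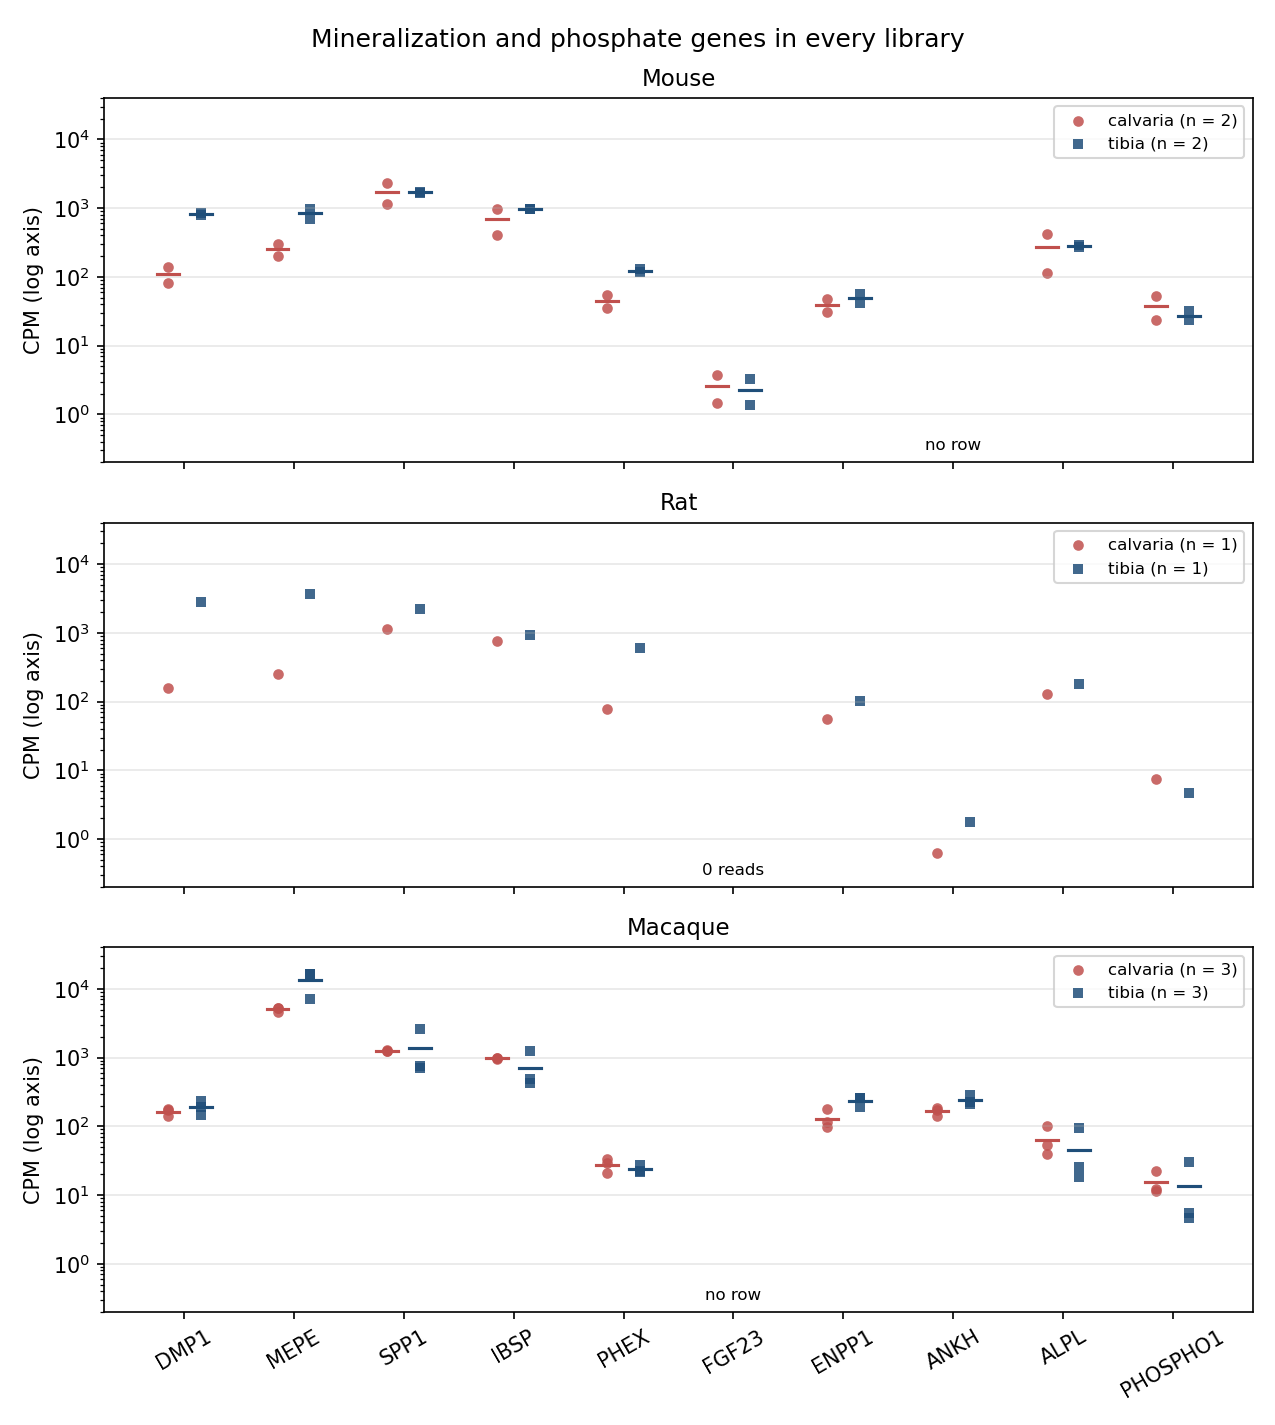
CPM of each gene on a log axis in every library of mouse, rat and macaque, with calvaria as red circles, tibia as blue squares and the mean as a bar where a site has replicates. In mouse and rat the tibia points of DMP1, MEPE and PHEX lie apart from the calvaria points, and in macaque those of MEPE, ENPP1 and ANKH.

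Of the 9 members tested in mouse, none was called, where 0.0836% of 16740 genes were called in all. By unadjusted p, 3 members (DMP1, MEPE and PHEX) were under 0.05, against 7.51% of all genes. The same 3 lay higher in every tibia pool than in every calvaria pool, as did 20% of all genes. They were called by edgeR's exact test, by its likelihood ratio test and by DESeq2, under which 2.62%, 3.08% and 2.62% of all genes were called, and with all genes that had a read (2.28%). Blocks on the 2 possible pairings of the mouse pools called DMP1 alone (0.382% of all genes) or all 3 (0.836%). Without M4 or M8 single calvaria pools gave 6 and 7 called members, in fits that called 42% and 19.4% of all genes. In macaque 3 of 9 members were called (MEPE, ENPP1 and ANKH), against 28.8% of 13094 genes, and all 3 were higher in tibia, a direction in which 14% of all genes were called. These 3 did not overlap between the sites, and 15.8% of all genes were likewise higher in every tibia library. Calvaria and tibia libraries were also treated as pairs, assumed from correlations in these same data. ALPL and IBSP were then called as well, higher in calvaria, and the count became 5, against 37.2% of all genes. In rat 3 of the 9 members with reads (DMP1, MEPE and PHEX) passed a log2 ratio of 2 in size, against 9.69% of 19234 genes, all toward tibia, the direction of 8.14%. The median log2 difference over the members was -0.33 in mouse, -0.97 in rat and -0.11 in macaque, beside medians of 0.05, -0.29 and -0.0028 over all genes tested.

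DMP1, the matrix protein of young and mature osteocytes, showed the widest gap between the bones in rodents. In mouse it stood at 140 CPM in M4 and 82.2 in M8 from calvaria, and at 807 in M5 and 840 in M7 from tibia. The groups did not overlap, as was the case for 40.1% of mouse genes, and the ratio of a calvaria to a tibia pool lay between 0.0979 and 0.174. The log2 difference was -2.89 (SE 0.33), a 7.39-fold higher level in tibia, with an adjusted p of 0.209 that fell just short of the threshold. Among the alternatives the adjusted p ranged from 2.251e-12 to 0.543 and the log2 difference from -3.35 to -2.55.

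In rat DMP1 had 2243 reads in calvaria and 34033 in tibia, or 157 and 2782 CPM. The log2 ratio was -4.14, with a 95% exact binomial interval of -4.21 to -4.08 that covers counting error only. In macaque the levels were 143, 176 and 174 CPM in G1, G3 and T1 from calvaria and 190, 234 and 144 in G2, G4 and T2 from tibia. These groups overlapped, and the log2 difference of -0.20 (SE 0.19) did not pass the test (adjusted p = 0.542). The difference between the bones itself differed between mouse and macaque, by 2.64 (SE 0.37) on the log2 scale, with an adjusted p of 0.0186 in the test of the species by site interaction. In simulated data this test made more false calls than its threshold allows, which limits this result and that for PHEX. Of 8916 genes 6.77% passed that test, as did 2 of the 8 members present in both species (DMP1 and PHEX). DMP1 remained called in the interaction without any 1 of the 10 libraries, with adjusted p from 0.00245 to 0.0782.

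MEPE, a matrix phosphoglycoprotein whose acidic peptide is known to hinder mineral growth, lay higher in every tibia library than in every calvaria library of its species, and the difference was called in macaque. There it was also the most abundant member per kilobase at both sites. Its level was 5344, 4626 and 5312 CPM in G1, G3 and T1 and 16444, 16689 and 7084 in G2, G4 and T2. The groups did not overlap, as was so for 32.3% of macaque genes, and T2 lay nearest to calvaria. The log2 difference was -1.40 (SE 0.31), with an adjusted p of 0.0138, and it was -1.70 without T2. MEPE alone took 1.86% and 1.84% of all counted reads in G2 and G4, against 0.707% in T2 and 0.426% to 0.530% in calvaria.

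In mouse MEPE stood at 298 and 203 CPM in M4 and M8 and at 705 and 979 in M5 and M7. The groups did not overlap, and the log2 difference of -1.75 (SE 0.31) had an adjusted p of 0.326. The study lists MEPE as differentially expressed in mouse and macaque at the same thresholds, without naming the edgeR test it used. It also lists MEPE among its rat genes, toward tibia. By edgeR's exact test the adjusted p of mouse MEPE was 0.00194 here. Rat MEPE had 3641 reads in calvaria and 45587 in tibia, a log2 ratio of -3.87 (interval -3.92 to -3.82). The MEPE difference was not shown to differ between mouse and macaque (0.31, SE 0.50, adjusted p = 0.819).

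IBSP and SPP1, both phosphoproteins of osteoblasts and of newly formed matrix, lie in the same stretch of the genome as DMP1 and MEPE. On mouse chromosome 5 (GRCm38) Dspp, Dmp1, Ibsp, Mepe and Spp1 follow each other on the plus strand from 104170712 to 104441050, a span of 270 kb. Ibsp (104299171 to 104311469) lies between Dmp1 (104202613 to 104214102) and Mepe (104325329 to 104338611), and Spp1 (104435118 to 104441050) closes the row. Mouse IBSP stood at 965 and 412 CPM in M4 and M8 and at 984 and 963 in M5 and M7, and mouse SPP1 at 2291 and 1150 in calvaria and 1652 and 1740 in tibia. For both genes M8 lay below the tibia pools while M4, which had the higher osteoblast marker sum, lay between or above them. Neither passed the test (log2 -0.50, adjusted p = 0.779 and 0.02, adjusted p = 0.992). Mouse IBSP turned to -1.26 and was called without M4 (adjusted p = 1.180e-04), and stood at -0.014 without M8.

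In macaque IBSP was nearly the same in the calvaria libraries, at 950, 986 and 979 CPM, and spread widely in tibia, at 427 in G2, 493 in G4 and 1229 in T2. SPP1 had the same shape, with 1295, 1248 and 1251 CPM in calvaria and 762, 709 and 2622 in tibia. G2 and G4 lay below every calvaria library in both genes and T2 lay above every one. T2 had the highest osteoblast marker sum of the macaque libraries. T1, with the highest of the calvaria libraries, lay between G1 and G3 in both genes. Over all libraries IBSP had a log2 difference of 0.44 (SE 0.33, adjusted p = 0.434) and SPP1 of -0.11 (SE 0.41, adjusted p = 0.896). With the assumed pairs in the fit, the IBSP difference was 0.61 and was called (adjusted p = 0.110). Without T2 both were called higher in calvaria, at 1.08 (adjusted p = 5.729e-04) for IBSP and 0.78 (adjusted p = 0.00378) for SPP1, in a fit that called 37% of all genes. Without G2 or G4 the IBSP difference was 0.17 (adjusted p = 0.825) or 0.23 (adjusted p = 0.760), and SPP1 stood at -0.40 or -0.42. In rat the ratios of both genes were smaller in size than those of DMP1 and MEPE, with 16217 and 27312 reads for SPP1 (log2 ratio -0.97) and 10855 and 11250 for IBSP (-0.27). TMM factors would raise every rat ratio by 0.29, which turns IBSP to 0.02.

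Shares of the 4 phosphoprotein transcripts in their own sum do not depend on how libraries are scaled. Per kilobase, SPP1 made up 65.7% (M4) and 65.8% (M8) of their sum in mouse calvaria but 45.2% (M5) and 43.3% (M7) in the tibia pools. DMP1 made up 2.38% and 2.78% in calvaria and 13.0% and 12.3% in tibia. In rat the shares of DMP1 were 2.34% and 14.6%, and those of SPP1 59.6% and 41.2%. Macaque had another order, with MEPE at 57.1% to 60.9% in calvaria, at 89.2% and 88.9% in G2 and G4, and at 55.3% in T2. DMP1 stayed between 1.57% and 3.32% in all 6 macaque libraries. Exonic lengths in mouse, rat and macaque were 2810, 5503 and 1521 bases for DMP1 and 1682, 3523 and 2321 for MEPE. Shares of different species thus rest on unlike gene models, and the part of this was not tested.

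**Figure D2:**
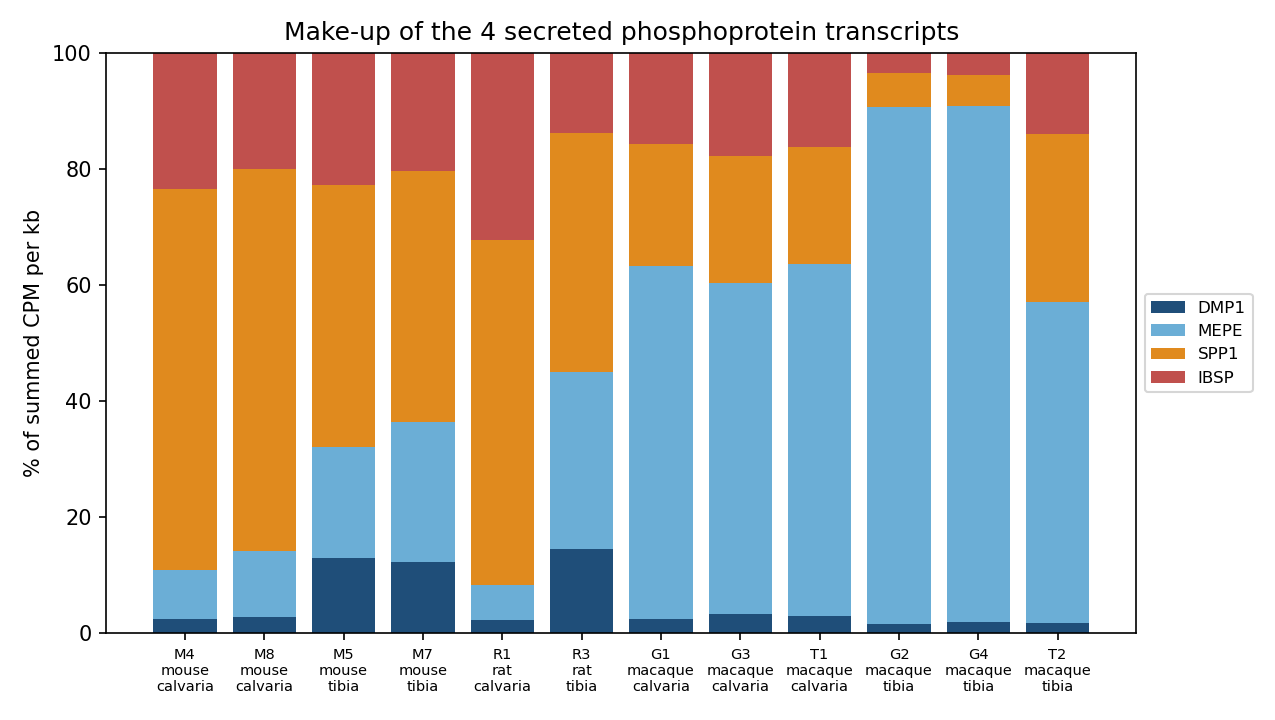
Stacked bars of the share of DMP1, MEPE, SPP1 and IBSP in the summed CPM per kilobase of the 4 genes, 1 bar per library. SPP1 fills the largest share in the rodent libraries and MEPE in the macaque libraries, and the MEPE share of T2, 55.3%, lies near the 57.1% to 60.9% of macaque calvaria.

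The levels of MEPE and DMP1 per kilobase within a library give the same contrast as a ratio. In macaque the MEPE to DMP1 ratio was 24.4, 17.2 and 20.1 in calvaria and 56.8, 46.8 and 32.2 in G2, G4 and T2, without overlap. The difference of the log2 means was -1.12, with an exact 2-sided permutation p of 0.1, the smallest that 3 against 3 libraries can give, and 0.3 after adjustment over the 3 ratios examined. Tibia was higher in all 3 assumed pairs, with an exact sign-flip p of 0.25, the smallest that 3 pairs can give. In mouse the direction was the opposite, with ratios of 3.55 and 4.12 in calvaria and 1.46 and 1.95 in tibia, and in rat they were 2.54 and 2.09.

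PHEX, the cell surface endopeptidase whose loss raises FGF23, had the direction of DMP1 in the rodents. Mouse PHEX stood at 54.6 and 35.6 CPM in M4 and M8 and at 116 and 131 in M5 and M7. The groups did not overlap, and the log2 difference was -1.45 (SE 0.27, adjusted p = 0.355). In rat 1112 reads in calvaria faced 7410 in tibia, a log2 ratio of -2.96 (interval -3.05 to -2.87). In macaque the levels were 29.7, 33.2 and 20.6 CPM in G1, G3 and T1 and 21.9, 22.1 and 27.8 in G2, G4 and T2. Here the sites overlapped and the log2 difference of 0.22 (SE 0.23) did not pass the test (adjusted p = 0.587). The difference differed between mouse and macaque by 1.63 (SE 0.36, adjusted p = 0.0624). That interaction was lost without M5 (adjusted p = 0.223) or without M7 (adjusted p = 0.252), the 2 mouse tibia pools, at log2 values of 1.74 and 1.54.

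FGF23, the phosphate hormone, was low but counted in every mouse library and had no read in rat. In mouse 58 and 19 reads were counted in M4 and M8 and 57 and 20 in M5 and M7, or 3.71, 1.45, 3.23 and 1.36 CPM. M4 and M5 were high and M8 and M7 low, so that the spread within a site exceeded the gap between sites (log2 0.17, SE 0.69, adjusted p = 0.960). In rat no read was counted in either bone, which allows up to 0.210 CPM in R1 and 0.245 in R3 at 3 reads, for counting error only. The rat table also lists 0 reads in both bones for COL1A2, a collagen chain of bone matrix with 17786 CPM in mouse calvaria, so that a 0 in it does not show that a gene was silent. In macaque a row printed as LOC710643, which RefSeq names FGF23 but the member rule does not reach, had 4, 3 and 1 reads in calvaria and 6, 12 and 6 in tibia. This row was singled out after its values were seen, and its log2 difference of -1.36 had an adjusted p of 0.247.

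ENPP1, the ectoenzyme that makes pyrophosphate from nucleotides, was called in macaque, higher in tibia. Its level was 176, 98.8 and 114 CPM in G1, G3 and T1 and 259, 259 and 191 in G2, G4 and T2. All tibia libraries lay above all calvaria libraries, and the log2 difference was -0.87 (SE 0.22, adjusted p = 0.0294), a 1.82-fold higher level in tibia. In rat ENPP1 had 806 and 1260 reads, a log2 ratio of -0.86 (interval -0.99 to -0.74). In mouse the levels of 30.7 and 47.7 CPM in calvaria and 42.2 and 56.1 in tibia overlapped (log2 -0.33, adjusted p = 0.787), and the difference was not shown to differ from macaque (-0.58, SE 0.40, adjusted p = 0.539).

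ANKH, a membrane protein known for raising pyrophosphate outside the cell, was called in macaque as well. It stood at 186, 142 and 171 CPM in G1, G3 and T1 and at 286, 213 and 228 in G2, G4 and T2. The groups did not overlap, and the log2 difference of -0.54 (SE 0.17) was called (adjusted p = 0.0670). The call was lost without G2 (log2 -0.41, adjusted p = 0.283). In rat ANKH had 9 and 22 reads (log2 ratio -1.42, interval -2.81 to -0.33). The mouse table carried the gene under its older symbol Ank, outside the member rule and named after its values were seen, with 83.7 and 63.9 CPM in calvaria and 104 and 120 in tibia (log2 -0.60, adjusted p = 0.645).

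ALPL is the tissue-nonspecific alkaline phosphatase that breaks down pyrophosphate. It was called in macaque, higher in calvaria, with the assumed pairs in the fit but not without them. The pairs were chosen from correlations in these same data. With the letter G or T as covariate ALPL was called too, at 0.72 (adjusted p = 0.0275). In macaque it stood at 39.6, 52.9 and 99.6 CPM in G1, G3 and T1 and at 18.6, 25.7 and 93.6 in G2, G4 and T2. T1 and T2 were high and the 4 G libraries low, so that the sites overlapped, while within each assumed animal calvaria was the higher, by ratios of 2.13, 2.06 and 1.06. The log2 difference was 0.47 (SE 0.52, adjusted p = 0.607) without the pairs and 0.72 (adjusted p = 0.0290) with them. It was 0.0043 without T1, 0.097 without G2 and 0.18 without G4, and 1.53 without T2, where it was called (adjusted p = 0.00810). In mouse ALPL ranged over 427 and 115 CPM in M4 and M8 and held at 287 and 270 in tibia (log2 -0.04, adjusted p = 0.991). Leaving out M8 turned the value to 0.61 (adjusted p = 0.0254) and leaving out M4 to -1.29 (adjusted p = 1.361e-04). Rat ALPL had 1855 and 2237 reads, a log2 ratio of -0.49.

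PHOSPHO1, the phosphatase that frees phosphate inside matrix vesicles, was not called in mouse or macaque. Macaque libraries had 11.3, 12.3 and 22.2 CPM in calvaria and 4.68, 5.49 and 30.0 in tibia, again with T1 and T2 above the others. The log2 difference was 0.18 (SE 0.60, adjusted p = 0.879), and 1.59 (adjusted p = 0.0119) without T2. In mouse 52.1 and 23.7 CPM in calvaria faced 31.5 and 23.4 in tibia (log2 0.47, adjusted p = 0.785). It was the only member with more reads in rat calvaria, 105 against 57, a log2 ratio of 0.65 (interval 0.18 to 1.15).

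**Figure D3:**
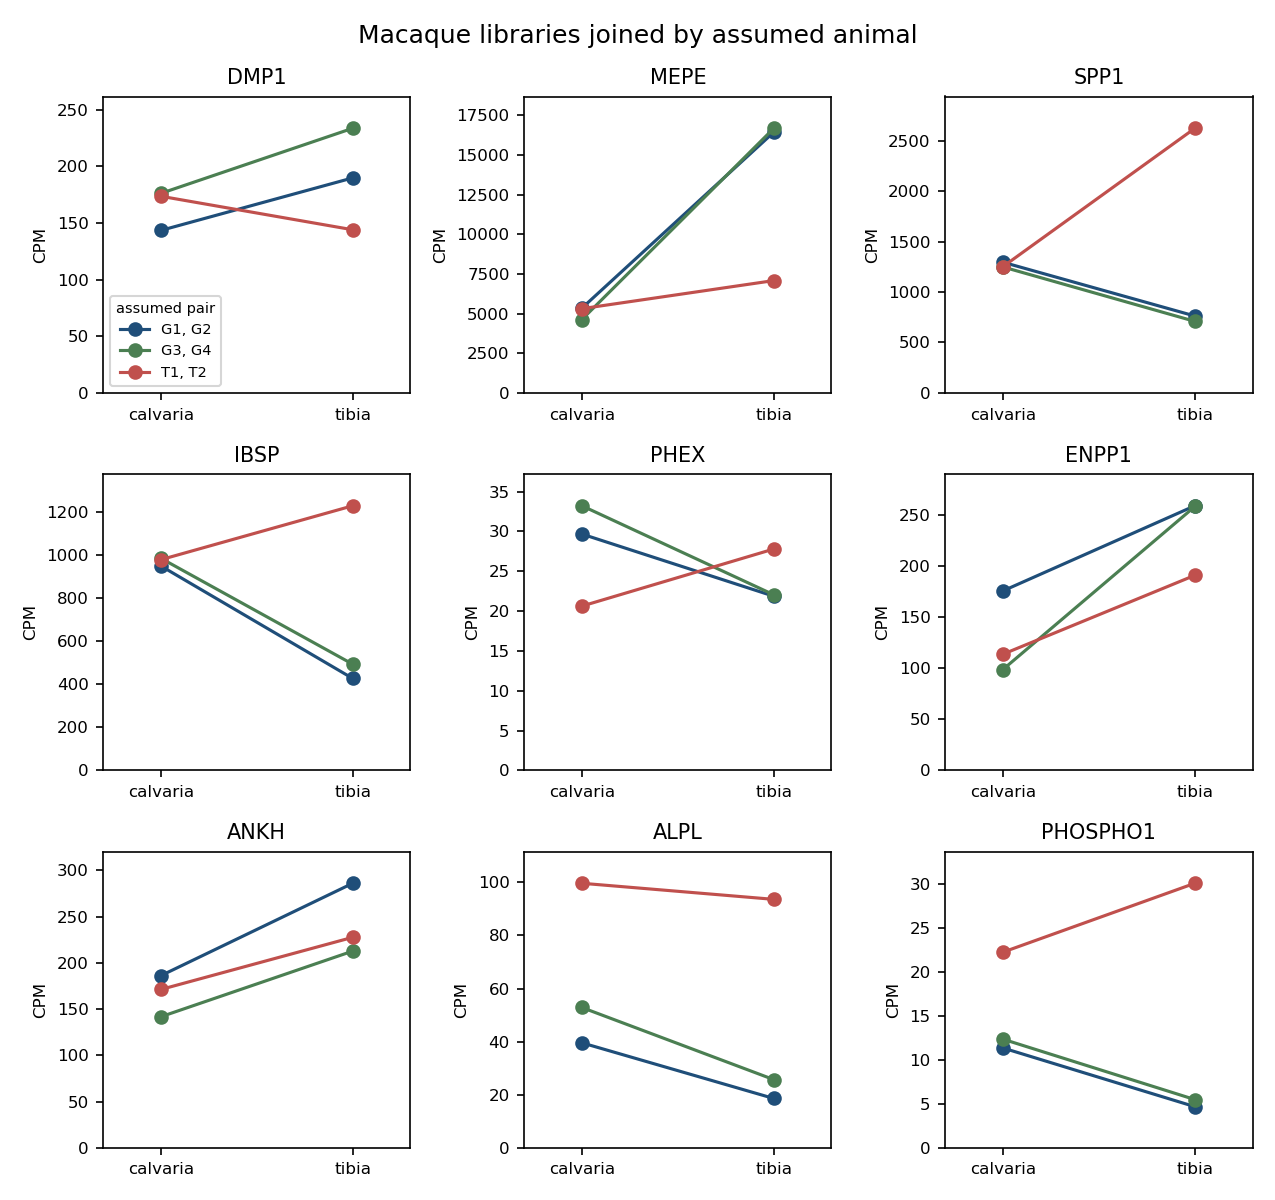
CPM of the 9 members in macaque, with the calvaria and tibia library of each assumed animal joined by a line and each axis starting at 0. MEPE, ENPP1 and ANKH are higher in tibia in all 3 pairs and ALPL is lower in all 3, while SPP1, IBSP, PHEX and PHOSPHO1 are lower in tibia in the 2 G pairs and higher in T2 than in T1.

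The ratio of ALPL to ENPP1 per kilobase sets the enzyme that removes pyrophosphate beside the one that makes it. It was 0.322, 0.766 and 1.25 in G1, G3 and T1 and 0.103, 0.142 and 0.701 in G2, G4 and T2, higher in calvaria within all 3 assumed pairs. The log2 means differed by 1.64 (exact 2-sided permutation p = 0.2, adjusted p = 0.3), and the sites overlapped through G1 and T2. The ratio of ALPL to ANKH differed by 1.28 (exact permutation p = 0.3, adjusted p = 0.3) and was likewise higher in calvaria in 3 of 3 pairs. Tested over the pairs, both ratios had an exact sign-flip p of 0.25, the smallest possible with 3 pairs. In mouse the ALPL to ENPP1 ratio was 12.9 and 2.25 in calvaria and 6.32 and 4.47 in tibia, which overlapped, and in rat it was 3.21 and 2.48.

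T2 was the library with the highest osteoblast marker sum, and it stood apart from G2 and G4 in the other marker sums as well. Without T2, 8 of the 9 macaque members were called, 4 higher in tibia (DMP1, MEPE, ENPP1 and ANKH) and 4 higher in calvaria (SPP1, IBSP, ALPL and PHOSPHO1). That fit called 37% of all genes. The 4 G libraries alone, a setting added after the data were seen, called all 9, with PHEX joining those higher in calvaria (log2 0.53, adjusted p = 0.134), and 32.8% of all genes.

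**Figure D4:**
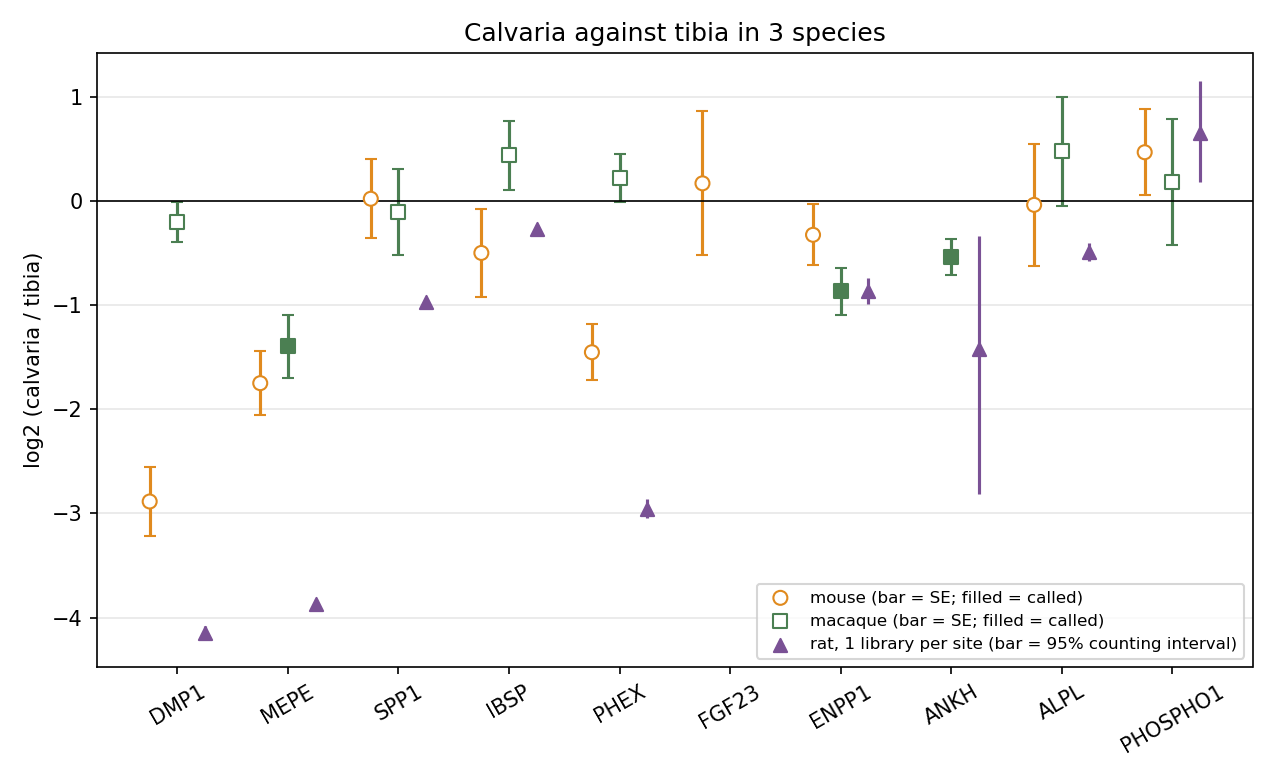
Log2 of calvaria over tibia for each member, with mouse as circles and macaque as squares (bars show the standard error, filled symbols were called) and rat as triangles with a 95% counting interval. DMP1 and PHEX lie far below 0 in mouse and rat and near 0 in macaque. MEPE lies far below 0 in mouse (-1.75), rat (-3.87) and macaque (-1.40). ENPP1 lies below 0 in all 3 as well, at -0.33, -0.86 and -0.87.

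Per kilobase, SPP1 was the most abundant member in both rodents at both sites and MEPE in macaque. In mouse calvaria the order was SPP1 (1038 CPM per kilobase), IBSP (352), MEPE (149), ALPL (74.3), DMP1 (39.6), PHOSPHO1 (19.9), ENPP1 (11.6), PHEX (7.20) and FGF23 (0.955), and the ranges of ALPL and DMP1 and of PHOSPHO1 and ENPP1 met. In mouse tibia DMP1 took the fourth place with 293, and MEPE (501) and IBSP (498) could not be ordered. SPP1 there ranked 48 of all 38599 symbols and MEPE 103. Rat tibia began with SPP1 (1431), MEPE (1058), DMP1 (506) and IBSP (476), and rat calvaria with SPP1 (729), IBSP (394) and MEPE (72.5).

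In macaque tibia MEPE (5776 CPM per kilobase) ranked 15 of 28641 symbols, followed by SPP1 (833) and IBSP (449), whose ranges met, DMP1 (124), ANKH (69.3) and ENPP1 (67.8), which also met, ALPL (18.9), PHEX (7.40) and PHOSPHO1 (6.34). Macaque calvaria had the same order at 2195 for MEPE, 773 for SPP1, 609 for IBSP and 108 for DMP1, down to 7.24 for PHOSPHO1. In both macaque bones the ranges of ANKH and ENPP1 met, and so did those of PHEX and PHOSPHO1, with those of ENPP1 and ALPL in calvaria and of ALPL and PHEX in tibia.

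Over the 6 macaque libraries, which share 2 sites and 2 name letters, members differed in how alike their log2 CPM ran. ALPL and PHOSPHO1 were most alike (Pearson's r 0.98), followed by IBSP and PHOSPHO1 (0.93) and by SPP1 and PHOSPHO1 (0.91). ENPP1 was most like ANKH (0.89) and MEPE (0.88). MEPE ran opposite to IBSP (-0.90), and DMP1 opposite to SPP1 (-0.83). By ranks (Spearman's rho) these were -0.60 and -0.94. Some pairs depended on T2. Without it r went from -0.64 to -0.99 for MEPE and SPP1 and from -0.37 to -0.85 for SPP1 and ENPP1, while ALPL and PHOSPHO1 stayed at 0.98.

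Of 13 further genes of phosphate handling and phosphoprotein processing, 10 were tested in mouse and none was called, with a median log2 difference of -0.45. In macaque 7 were tested and 1 was called, at a median of -0.09, a smaller share than the 28.8% of all macaque genes. That gene was GALNT3, the enzyme that glycosylates FGF23 and shields it from cleavage, with 30.8 CPM ± 5.36 (SD, n = 3) in calvaria and 42.7 ± 3.81 in tibia (log2 -0.47, adjusted p = 0.142). In rat 3 of 12 passed the ratio threshold toward tibia, against 8.14% of all genes: FAM20C, the kinase of secreted phosphoproteins (1013 and 5780 reads), its partner FAM20A (198 and 1254) and FGFR1, a receptor of FGF23 (2653 and 23379). KL, the coreceptor of FGF23, had no read in either rodent. These rat genes and KL were named after their values were seen.

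Of 8 further genes of mineral formation, 6 were tested in mouse and 1 was called, against 0.0836% of all genes. In macaque 3 of 6 were called, against 28.8%, and all of those called were higher in tibia, the direction of 14% of all macaque genes. The median log2 difference was -0.13 in mouse and -0.12 in macaque. NT5E, the ectonucleotidase that turns AMP into adenosine, was called in both species. Its mouse level was 8.03 CPM ± 0.150 (SD, n = 2) in calvaria and 40.5 ± 2.91 in tibia (log2 -2.34, adjusted p = 0.154), and its macaque level was 5.61 ± 1.94 (SD, n = 3) and 12.0 ± 2.77 (log2 -1.10, adjusted p = 0.0617). MGP, an inhibitor of calcification, stood at 271 CPM ± 41.2 in macaque calvaria and 398 ± 48.6 in tibia (log2 -0.55, adjusted p = 0.0602). ENTPD5, a nucleotide hydrolase, stood at 1.63 ± 0.298 and 3.48 ± 1.49 CPM (log2 -1.08, adjusted p = 0.173). Rat NT5E (135 and 579 reads) and MGP (1496 and 7207) passed the ratio threshold toward tibia too, and ABCC6, named after its values were seen, with 5 reads and none, toward calvaria (9.69% of all rat genes passed in either direction).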

How the data were processed

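The authors mapped single-end reads to mm10, rn6 and the macaque MacaM assembly with HISAT2 (the submitters' processing notes name BWA 0.7.10-r789 instead) and counted them on merged exons with HTSeq-count, ignoring strand. The deposited tables hold raw read counts per gene and library, which were used here, beside CPM normalized by the authors, which were not. Rows naming no gene held 0.00261% to 0.0663% of reads and were left out, rows of one symbol were summed, and 5938 of 17111 macaque LOC rows received a RefSeq symbol. Genes with 0 reads in any library of a species were removed, as in the study. Each of mouse and macaque had its own edgeR 4.0.16 fit (TMM, quasi-likelihood test, Benjamini-Hochberg adjustment), and the interaction over both. TMM factors ran from 0.942 to 1.05 (mouse) and from 0.882 to 1.13 (macaque), and the common biological coefficient of variation was 0.316 and 0.267. SE is the log2 difference divided by the square root of F. The rat ratio used 1 added read. Counting intervals are exact binomial.

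The study's methods say that skull and tibia were paired, and the labels name no pairs. Deviations from the site means correlated at 0.182 (G1 and G2), 0.265 (G3 and G4) and 0.417 (T1 and T2) across genes, which are not independent replicates, and at -0.328 to 0.075 in the remaining combinations, so these pairs were used in the blocked fits. Whether mouse pools or macaque animals share handling was not given in the sources used here, and p-values measure the spread between these libraries. Named genes were all members and, of the 2 wider lists, those called in mouse or macaque, at most 8; rat genes past the ratio threshold, KL and the rows outside the member rule were named after their values were seen. The genes and lists were chosen with earlier results of these data known. The fits were tested on simulated data, where the interaction test made more false calls than its threshold allows. Alternatives were other normalizations, filters, tests and thresholds, DESeq2 1.42.0, length offsets, blocks and fits without each library. Mouse coordinates are from GENCODE vM21. Protein sequences were not used here.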

Additional observations from a re-analysis of the deposited data

Results flagged for a closer look

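The difference between calvaria and tibia was tested for a difference between mouse and macaque. For DMP1 the log2 difference in macaque exceeded that in mouse by 2.64 (SE 0.37, adjusted p = 0.0186). Every mouse calvaria pool lay below every tibia pool, as for 20% of all mouse genes. In macaque DMP1 was lower in calvaria in 2 of 3 assumed animals. For PHEX the log2 difference in macaque exceeded that in mouse by 1.63 (SE 0.36, adjusted p = 0.0624). Its mouse pools did not overlap between the sites either, and calvaria was lower in 1 of 3 assumed macaque animals. In simulated data the interaction test made more false calls than its threshold allows. Species, lane and annotation cannot be told apart in either. No group had the 4 samples needed for a test of a single distant library.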

How the results depend on the processing

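The mouse count of called members, 0, became 3 with DESeq2, the likelihood ratio test, the exact test, all genes with a read or a replicate block on the other possible pairing, and 1 (DMP1) with the assumed pairing as replicate block, the exonic length offset, filterByExpr, a mean of at least 10 reads or the symbols of all 3 species. Leaving out each library gave 0 to 7: 6 without M4 and 7 without M8, where the lone calvaria pool is assumed to vary like the tibia pools and 42% and 19.4% of all genes were called. The macaque count, 3, became 5 with the replicate block or with the letter G or T as covariate, 9 with the G libraries only, and 1 at a log2 threshold of 1, and ranged from 2 (without G2) to 8 (without T2). The interaction count, 2, became 1 at an adjusted p of 0.05, and ranged from 1 (without M5 or M7) to 3 (without M4 or T2, where IBSP joined). The rat count was 3 to 4. Of all macaque genes 37.2% were called with the replicate block, 32.8% with the G libraries only and 37% without T2. No share of all genes is given for the letter covariate, a log2 threshold of 1, the fit without G2 or the changed interaction and rat counts. Nor is one given for the mouse length offset, filterByExpr, mean of at least 10 reads or symbols of all 3 species. Those counts cannot be set against all genes. Library size in place of TMM lowers macaque log2 differences by 0.21 and turns the split of all calls from 1937 higher in calvaria and 1836 in tibia to 1265 and 3160; among members it added DMP1 (adjusted p = 0.195). SPP1 in mouse changed sign at library size alone (-0.046) and with the replicate block on either pairing (-0.063), and ranged from -0.58 to 0.43 without single libraries; SPP1 in macaque turned to 0.80 with the G libraries only, to 0.19 with the letter covariate or the replicate block, and ranged from -0.42 to 0.78. Without single libraries IBSP in mouse ranged from -1.26 to -0.014, IBSP in macaque from 0.17 to 1.08, ALPL in macaque from 0.0043 to 1.53, FGF23 in mouse ranged from -0.70 to 0.92, ALPL in mouse from -1.29 to 0.61, PHOSPHO1 in mouse from -0.24 to 0.92 and PHOSPHO1 in macaque from -0.22 to 1.59. The site difference in the ratio of ALPL to ENPP1 ranged from 1.098 to 2.48, of ALPL to ANKH from 0.69 to 2.02 and of MEPE to DMP1 from -1.34 to -0.93; a replicate block on the assumed pairs, added after the data were seen, left the differences at 1.64, 1.28 and -1.12 (exact sign-flip p = 0.25 each). In all settings run, DMP1, MEPE, PHEX, ENPP1 and IBSP in mouse kept their direction. So did MEPE, ENPP1, ANKH, DMP1, IBSP, PHEX and ALPL in macaque. Leaving out a single library could hardly turn a gene whose sites did not overlap. FGF23 had at most 58 reads in a library and rat ANKH 9 and 22, so that their differences rest on few reads.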
